A study of Mus musculus with 4 samples.

Results

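Multipotent progenitors (MPP) with a conditional knockout of p38 alpha (cKO) were compared with wild-type (WT) MPP 16 h after transplantation, on 1 array per genotype. These are 2 of the 4 arrays of the series. The other arrays hold long-term haematopoietic stem cells (LT-HSC) of the same genotypes and are used here only for values set beside those of MPP. The members are the probes whose signal the scanner software called well above background on at least 1 of the 2 MPP arrays. There were 37991 such probes of 55681, standing for 25409 genes or transcripts, against 43160 probes and 28283 genes over all 4 arrays and 41768 probes and 27647 genes over the LT-HSC arrays.

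Donors of both genotypes were male C57BL/6J mice of the Ly5.2 type, 10 weeks old. Their MPP were sorted from femur and tibia marrow as CD34+ Flt3+ LSK cells (lineage-negative cells with Sca-1 and c-Kit), stained with the dye CFSE and injected into Ly5.1 congenic mice that had received 9.5 Gy. CFSE-positive cells were sorted from the recipients' femur and tibia 16 h later, and their total RNA was hybridised. LT-HSC went the same way after a sort as CD34- Flt3- LSK cells. The Cre driver, the deleted exons, the number of donors and recipients behind each array and any untransplanted cells are not given in the sources used here, so every value below describes cells after sorting, transplantation and a second sort. With 1 array per group no difference has a replicate check, and genotype cannot be told apart from any other difference between the preparations. All 4 arrays were on 1 slide and 1 scan.

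p38 alpha, the product of Mapk14, is a stress-activated MAP kinase. The kinases Map2k3 and Map2k6 switch it on by phosphorylation, and it passes the signal to kinases such as Mapkapk2 and Rps6ka5 and to transcription factors of the Atf and Mef2 families. Through these it acts on the rapid transcription of immediate early genes such as Fos and on the stability of short-lived mRNAs. MPP are short-lived progenitors downstream of LT-HSC that divide more often than they do and give rise to myeloid and lymphoid cells. The title of the series links p38 alpha to purine metabolism and to entry of stem and progenitor cells into cycle.

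The measured differences between the MPP arrays were small for most genes. A difference is the log2 signal on the cKO array minus that on the WT array, each taken relative to the 75th percentile of its array, and a gene is read at its brightest probe. Signals and their sums are given without that scaling. The 75th percentiles were 178.5 for WT MPP and 174.9 for cKO MPP, and 213.7 for WT LT-HSC and 202.0 for cKO LT-HSC. Of 22437 genes well above background on both arrays, 402 (1.79%) were higher on the cKO array by 2-fold or more and 420 (1.87%) were lower. At 1.5-fold, 1485 (6.62%) were higher and 1689 (7.53%) lower. The counts of list members past 1.5-fold given below are to be read beside these shares. The median difference was -0.06, and the middle of the distribution, from the lower to the upper quartile, ran from -0.28 to 0.20. That interquartile range of 0.48 compares with 0.71 for the same genotype difference in LT-HSC. Scaling to the 75th percentile of the probes well above background on both arrays changed the split at 2-fold to 486 higher and 326 lower, that is 59.9% higher against 48.9%. A further 2972 genes were well above background on 1 MPP array, 1833 on the cKO array and 1139 on the WT array, and for these only a bound can be given.

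The depth of an array is its signal over background. The lowest signal called well above background was 15.4 for WT MPP and 12.8 for cKO MPP, 62.5% and 65.0% of spots passed that call, and 0 spots were saturated. Probes printed several times on an array had a median SD of 0.095 to 0.10 on the log2 scale. The ± given below is the error that the scanner software attaches to a difference, with a median of 0.21, and holds no variation between animals or sorts. Large differences were mostly dim. With the genes cut into 4 equal classes by signal, 6.52% of the dimmest class differed by 2-fold or more, then 5.62%, then 2.07%, and 0.446% of the brightest class (mean signals from 654 up). Among 6045 genes with separate, non-overlapping probes, the second probe had the sign of the first in 60.9%. The share was 71.5% in the brightest of 4 equal classes into which these second probes were cut by their own signal. Of 191 such genes whose first probe reached 2-fold, the second reached 1.5-fold in the same direction in 36.1%. A difference at a single dim probe therefore had less support from the array itself than one at a bright probe or at several probes.

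**Figure D1:**
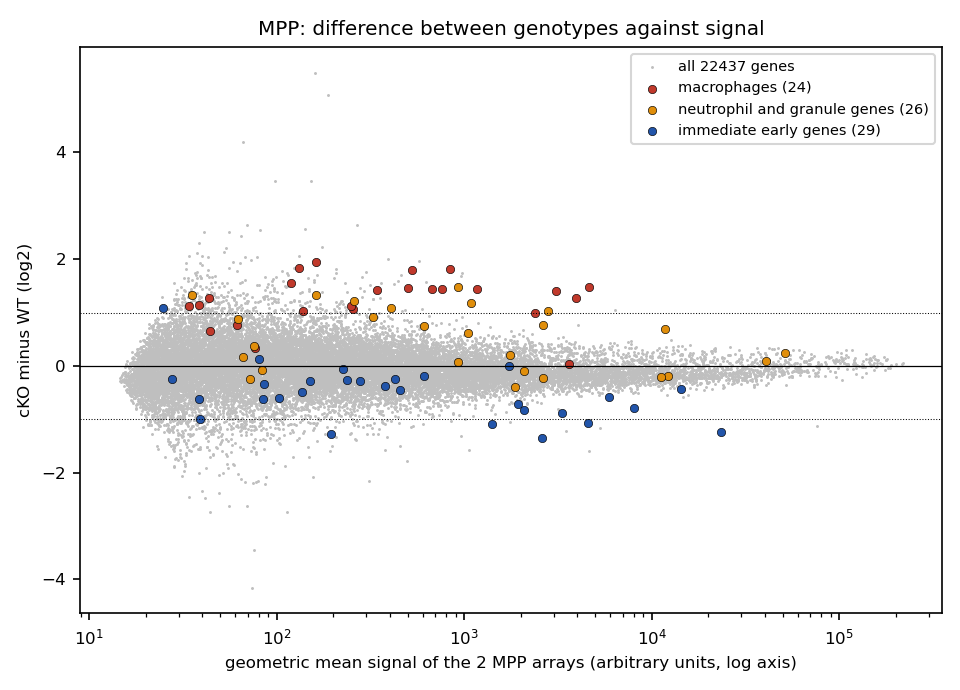
Difference between genotypes in MPP (log2, cKO minus WT) against the geometric mean signal of the 2 MPP arrays (arbitrary units, log axis), 1 point per gene for 22437 genes, with dotted lines at 2-fold. Macrophage genes (red) lie at or above 0 at every brightness, immediate early genes (blue) lie mostly below 0 up to the brightest signals, and 13 of the 26 neutrophil and granule genes (orange) are higher by 1.5-fold.

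The label of the cells was checked against genes of the sort. Flt3, the receptor that parts MPP from LT-HSC, had a signal of 515.1 for WT MPP and 365.3 for cKO MPP, against 176.6 on the WT LT-HSC array and 189.2 on the cKO LT-HSC array, at its brightest probe. Cd34, the other marker that parts them, had 7734 and 6331 on the MPP arrays against 1169 and 3601 on the LT-HSC arrays. Both MPP arrays were thus above both LT-HSC arrays for both genes. The cKO MPP array was the lower of the MPP arrays for Flt3, Cd34 and the stem cell factor receptor Kit (3737 and 2658). Xist, the transcript of the inactive X chromosome, was not well above background on either MPP array, and the Y-linked gene Ddx3y had 284.5 and 223.9.

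The targeted gene differed between the genotypes in MPP by less than the scanner error. The brightest Mapk14 probe, in the coding sequence at chr17:28873965-28874024 (mm9, plus strand), had a signal of 951.2 in WT MPP and 1024 in cKO MPP, 1447 on the WT LT-HSC array and 912.2 on the cKO LT-HSC array. The difference was 0.13 ± 0.20 in MPP and -0.58 in LT-HSC. A second probe, at chr17:28885290-28885349, had 621.1 and 594.5 in MPP (-0.03), and 474.2 and 490.5 in LT-HSC. The sequence of the first probe is shown because it defines which stretch of the transcript was still measured in the cells labelled cKO.
Mapk14 probe: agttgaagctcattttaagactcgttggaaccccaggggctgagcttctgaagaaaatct
Since the deleted exons are not given in the sources used here, neither probe can check the label, and "cKO" below means the array that carries this label. The other isoforms were dim. Mapk11 (p38 beta) had 59.6 and 67.0 on the WT and cKO MPP arrays, Mapk12 (p38 gamma) 54.0 and 45.5, and Mapk13 (p38 delta) 49.5 and 41.9, differences of 0.20, -0.22 and -0.21 with errors of 0.23 to 0.26. The region around the gene did not stand apart. Among 93 genes within 2 Mb on either side and measured on both MPP arrays, the median difference was -0.11, with 6 higher and 7 lower by 1.5-fold.

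Genes of the p38 pathway were close together on the MPP arrays. Of 30 kinases, phosphatases, adaptors and target factors, all measured on both arrays, 0 were higher and 1 was lower by 1.5-fold, with a median of -0.07. The one that was lower was Map2k3, an activating kinase of p38, with 111.6 on the WT and 66.1 on the cKO array (-0.73 ± 0.22), while the other activating kinase Map2k6 had 306.4 and 270.9 (-0.15). In LT-HSC the Map2k3 difference was 1.10, in the opposite direction. The downstream factor Atf1 stood at -0.46, the downstream kinase Rps6ka4 at -0.43, the stress sensor Gadd45g at 0.42 and Mapkapk2 at -0.21.

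Immediate early genes, which are transcribed within minutes of a signal from existing factors, formed the group with the lowest median of the 43 lists examined. Of 34 listed genes, 32 were well above background on at least 1 MPP array and 29 on both. Of the 29, 27 lay below 0, 13 were lower by 1.5-fold and 1 was higher, and the median was -0.48 against -0.06 over all genes. The summed signal of the 32 was 100284 on the WT and 54339 on the cKO MPP array, and 181457 and 95650 on the WT and cKO LT-HSC arrays. Fos, a subunit of the transcription factor AP-1, had a signal of 4198 on the WT MPP and 1606 on the cKO MPP array, a difference of -1.36 ± 0.06. Fosb, a related subunit, had 36574 and 15173 (-1.24 ± 0.20), and Jun, the partner of both, had 2078 and 961.3 (-1.08 ± 0.20). The orphan nuclear receptor Nr4a1 had 304.3 and 123.3 (-1.27 ± 0.21). Zfp36, which encodes tristetraprolin, a protein that speeds the decay of cytokine mRNAs, had 6729 and 3129 (-1.08 ± 0.20). These 5 genes were lower by 2-fold or more, and all but Nr4a1 lay in the brightest class of genes.

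The 250 bases before the annotated start of these 5 genes are shown because the genes were lower together and their promoters are textbook targets of the Creb, AP-1 and serum response factors. They come from RefSeq for build GRCm38.p6, read 5′ to 3′ on the gene's strand, and capitals mark matches on either strand to the motifs searched, TGACG (the core of a Creb site), TGACNTCA (its full palindrome or an AP-1-like form), TGANTCA (AP-1) and the CArG box (serum response factor). The windows are chr12:85473640-85473889 for Fos and chr15:101266596-101266845 for Nr4a1 on the plus strand, and chr7:19310046-19310295 for Fosb, chr4:95052223-95052472 for Jun and chr7:28379229-28379478 for Zfp36 on the minus strand.
Fos: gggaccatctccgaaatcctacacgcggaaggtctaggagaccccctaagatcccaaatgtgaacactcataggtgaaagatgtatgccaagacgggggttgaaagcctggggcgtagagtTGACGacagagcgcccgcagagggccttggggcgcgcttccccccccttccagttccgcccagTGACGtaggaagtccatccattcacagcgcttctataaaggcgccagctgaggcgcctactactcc
Nr4a1: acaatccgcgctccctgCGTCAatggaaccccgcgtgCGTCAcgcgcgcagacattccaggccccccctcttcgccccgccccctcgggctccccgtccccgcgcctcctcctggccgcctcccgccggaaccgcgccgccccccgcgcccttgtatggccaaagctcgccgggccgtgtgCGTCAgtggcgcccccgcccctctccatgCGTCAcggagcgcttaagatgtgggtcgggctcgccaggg
Fosb: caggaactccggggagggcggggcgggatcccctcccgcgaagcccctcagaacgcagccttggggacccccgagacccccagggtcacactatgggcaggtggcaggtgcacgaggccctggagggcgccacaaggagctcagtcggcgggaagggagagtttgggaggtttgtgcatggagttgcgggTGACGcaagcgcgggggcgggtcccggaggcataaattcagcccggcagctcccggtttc
Jun: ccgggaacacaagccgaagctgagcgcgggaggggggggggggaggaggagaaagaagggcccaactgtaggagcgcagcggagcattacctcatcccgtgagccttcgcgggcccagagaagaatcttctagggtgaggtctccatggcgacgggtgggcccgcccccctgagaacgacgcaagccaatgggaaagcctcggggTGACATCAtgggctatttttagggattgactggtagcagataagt
Zfp36: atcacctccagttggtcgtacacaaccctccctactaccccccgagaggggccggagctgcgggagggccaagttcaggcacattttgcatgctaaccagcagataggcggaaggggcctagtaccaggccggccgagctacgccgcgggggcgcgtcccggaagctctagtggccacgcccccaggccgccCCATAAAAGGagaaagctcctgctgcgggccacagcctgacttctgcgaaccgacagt
TGACG matched 2 times in the Fos window, 4 times in that of Nr4a1, where it reads CGTCA on the printed strand, and 1 time in that of Fosb. The Jun window held 1 TGACNTCA, which overlaps no TGACG, and the Zfp36 window 1 CArG box. TGANTCA matched in 0 of the 5. Over all 32851 promoters of the table, TGACG is in 17.8%, TGACNTCA in 7.49%, TGANTCA in 6.75% and the CArG box in 1.47%. Counted per gene, with a match in any promoter of the gene, the shares over 27025 genes were 19.8%, 8.55%, 7.82% and 1.62%. The counts that follow are per gene. TGACG was in 18 of the 28 listed immediate early genes that the table holds. It was in 7 of the 11 that were lower by 1.5-fold and in 8 of the 14 other measured ones, so the letters were common in the list and did not part the genes that were lower from those that were not. A match is a run of letters and no evidence of binding. Sequence outside the 250 bases was not searched, so an absent match does not show that a gene lacks the motif.

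The remaining genes lower by 1.5-fold were smaller in size, and those named here beyond the 5 with the largest differences were named after their values were seen. Dusp5, a phosphatase of ERK, had 55.6 and 27.4 on the WT and cKO arrays (-0.99 ± 0.28). The zinc finger factors Klf6 and Klf2 stood at -0.88 and -0.82. Egr1, an early growth response factor, had 10758 and 6094 (-0.79 ± 0.20), and Egr3 stood at -0.62. The phosphatase Dusp2 stood at -0.72, Nr4a2 at -0.62 and the AP-1 subunit Junb at -0.61. Dusp1, the phosphatase that acts on p38 itself, lay just short of 1.5-fold, with 7307 and 4793 (-0.58 ± 0.20), and the stress factor Atf3 stood at -0.48. Serum response factor, Srf, which binds CArG boxes, had 1760 and 1722. Fosl1 was well above background on the WT array only and was at least 2.55-fold lower on the cKO array. The single higher gene was Ccn2, a matricellular protein, with dim signals of 17.1 and 35.5 (1.08 ± 0.36), and Nr4a3 and Ccn1 were not well above background on either array.

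All 13 genes lower by 1.5-fold in MPP were also lower by 1.5-fold on the cKO LT-HSC array, a direction and size that 367 of 21491 genes (1.71%) showed in both populations. In LT-HSC alone 3040 of these genes (14.1%) were lower and 4146 (19.3%) higher by 1.5-fold, and of the 29 immediate early genes measured there 23 were lower and 0 higher, with a median of -0.77. The LT-HSC and MPP differences rest on different arrays. Fos stood at -0.88 in LT-HSC and -1.36 in MPP, Fosb at -1.12 and -1.24, Jun at -0.77 and -1.08, Egr1 at -1.05 and -0.79, and Nr4a1 at -1.83 and -1.27. Over all 21491 genes the 2 genotype differences had a correlation of 0.02 across genes, which share arrays and are not independent replicates. Handling times of the sorts are not given in the sources used here.

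**Figure D2:**
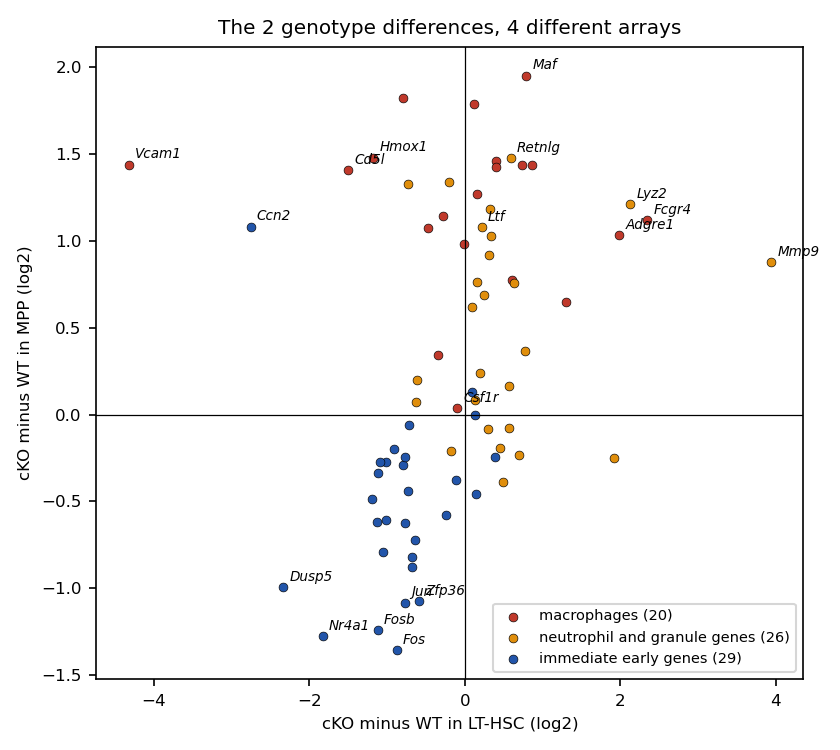
Difference between genotypes in MPP (vertical) against the same difference in LT-HSC (horizontal), both log2 cKO minus WT, for macrophage genes (20, red), neutrophil and granule genes (26, orange) and immediate early genes (29, blue) measured on all arrays concerned. Immediate early genes sit mostly in the lower left, with Ccn2 (-2.76 in LT-HSC, 1.08 in MPP) apart, while macrophage genes lie high in MPP and spread from -4.33 (Vcam1) to 2.35 (Fcgr4) in LT-HSC. Members not measured on all 4 arrays are not shown.

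Phosphatases and feedback inhibitors of MAP kinase pathways, many of them induced by the kinases they restrain, had 4 of 12 members lower by 1.5-fold and 0 higher on the MPP arrays, with a median of -0.27. The lower count was 2 with normexp background correction, 2 with quantile normalization and 0 with both, and without a filter on dim probes 2 were higher and 4 lower. Of the 4, Dusp5 and Dusp2 belong also to the immediate early list and are counted there. The others were the nuclear phosphatase Dusp4, with 52.0 and 28.6 (-0.84 ± 0.28), and Spred1, an inhibitor of Ras signalling, with 1151 and 708.8 (-0.67 ± 0.20). The ERK phosphatase Dusp6 stood at -0.17 and Spry2, a Ras pathway inhibitor, at 0.27.

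Macrophage genes were higher on the cKO MPP array and had the highest median of the 43 lists. Of 28 listed genes 27 were well above background on at least 1 MPP array and 24 on both. Of the 24, 22 were higher by 1.5-fold and 0 lower, with a median of 1.34, or 1.41 with the genes measured on 1 array at their bounds. The summed signal of the 27 was 16368 on the WT MPP and 36087 on the cKO MPP array, against 16177 on the WT LT-HSC and 14599 on the cKO LT-HSC array. The cKO MPP array was thus the one that stood apart from the other 3. In bulk RNA a larger number of such cells and more of these transcripts per cell cannot be told apart. The share of macrophages among the sorted CFSE-positive cells is not given in the sources used here, and its part in these values was not tested.

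The members covered several sides of macrophage biology. The complement components C1qc, C1qb and C1qa, which macrophages secrete, had signals of 454.0, 414.3 and 177.6 in WT MPP against 1570, 1100 and 365.8 in cKO MPP, differences of 1.82 ± 0.06, 1.44 ± 0.20 and 1.07 ± 0.21. Among receptors for uptake, the scavenger receptor Marco had 464.5 and 1233 (1.44), the sialic acid receptor Siglec1 69.8 and 201.4 (1.56, and 0.70 at a second probe), the mannose receptor Mrc1 28.2 and 67.0 (1.28) and the kinase Axl, which recognises dying cells, 212.1 and 558.7 (1.43). Its relative Mertk stood at 1.12. Fcna, a ficolin that binds sugars on microbes, had 70.5 and 245.1 (1.83). The antibody receptors Fcgr4 and Fcgr1 stood at 1.12 and 0.65. Cd5l, a secreted protein of tissue macrophages, had 1924 and 4995 (1.41 ± 0.20), and the lipid carrier Apoe 2568 and 6077 (1.27 ± 0.07). Vcam1, an adhesion molecule of the macrophages in erythroblastic islands, had 714.2 and 1896 (1.44) and 244.0 and 729.0 at a second probe (1.61). All of these were at least 1.5-fold higher on the cKO array at their brightest probe.

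Genes by which macrophages recycle red cells were among them. Haem oxygenase Hmox1 had 2790 on the WT and 7619 on the cKO MPP array (1.48 ± 0.20), and 696.1 and 1511 at a second probe (1.15). The iron exporter Slc40a1 had 305.9 and 823.4 (1.46), and Spic, the factor that directs the red pulp macrophage programme, 47.3 and 79.4 (0.77). The haemoglobin receptor Cd163 had 11.0 on the WT array, not well above background, and 141.3 on the cKO array, and was at least 9.35-fold higher. Timd4, a receptor for phosphatidylserine, was at least 4.18-fold higher and the complement receptor Vsig4 at least 1.69-fold. The transcription factor Maf had 83.0 and 314.1 (1.95 ± 0.22) at one probe but stood at -0.79 at another. The general macrophage antigens Cd68 and Adgre1 (F4/80) stood at 0.98 and 1.03, with second probes at 0.45 and 0.39. The lysosomal protease Lgmn had 284.8 and 964.8 (1.79 ± 0.21). The members under 1.5-fold were Pld4 (0.34) and Csf1r, the receptor of the macrophage growth factor, which had 3602 and 3624 at its brightest probe (0.04), and 0.62 and 1.43 at the others. Gpnmb was not well above background on either array.

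In LT-HSC the macrophage list did not have this pattern. Of 20 members measured there, 7 were higher and 4 lower by 1.5-fold, with a median of 0.14. Vcam1 stood at -4.33, Cd5l at -1.50 and Hmox1 at -1.18, against Fcgr4 at 2.35 and Adgre1 at 1.99. The difference between the populations was not tested.

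**Figure D3:**
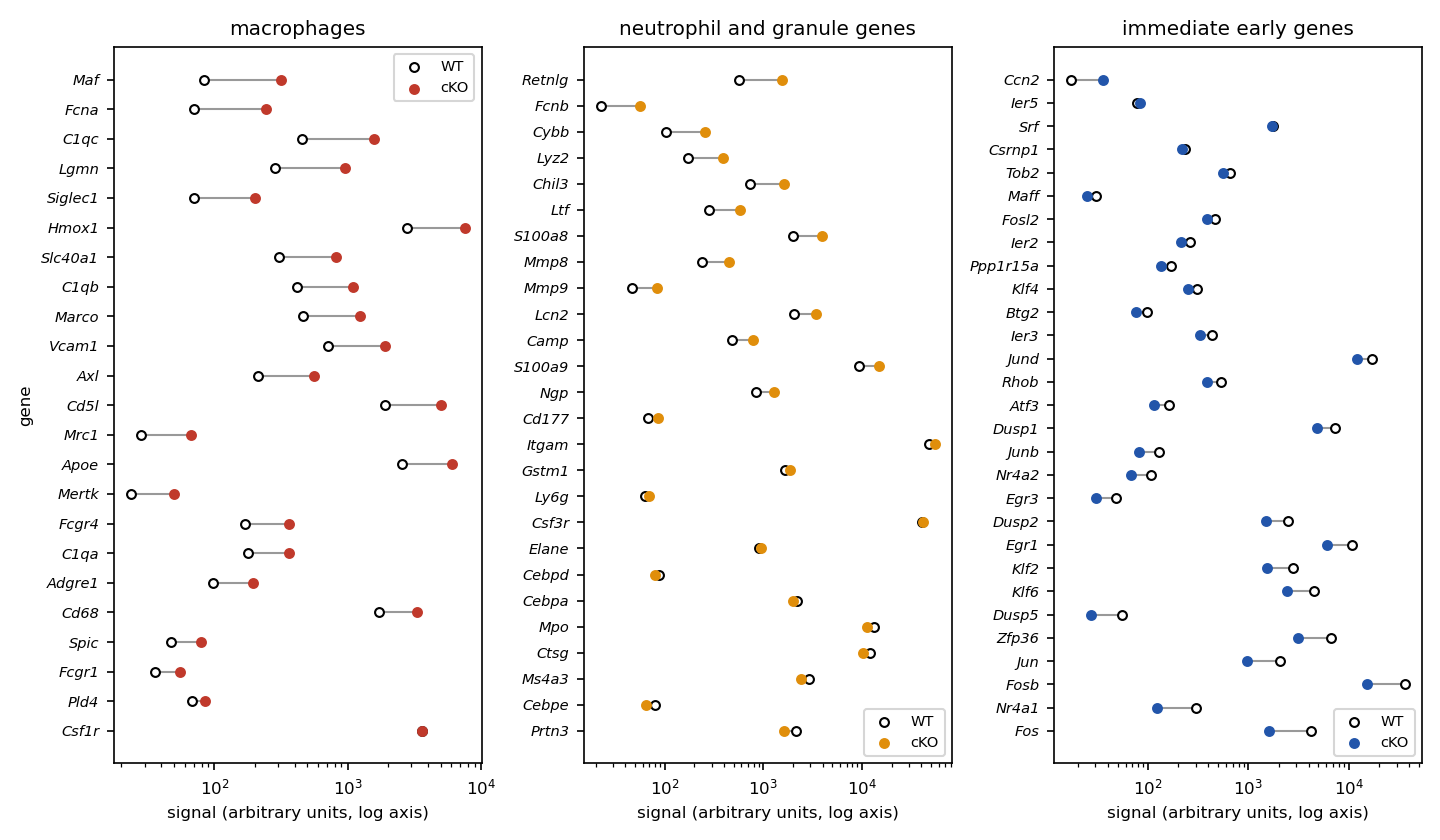
Signals (arbitrary units, log axis) on the WT (open) and cKO (filled) MPP arrays for members of the macrophage (23 of 24), neutrophil and granule (26) and immediate early (29) lists measured on both, sorted by difference. Every macrophage gene shown has its filled point at or right of the open one, and 27 of the 29 immediate early genes have it left.

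Among neutrophil and granule genes, 13 of 26 were higher on the cKO MPP array by 1.5-fold and 0 lower, all 26 being measured on both arrays, with a median of 0.49. That count stands exactly at the 50% at which a list counts as shifted. It was 10 of 26 with normexp background correction, 11 of 26 with normexp and quantile normalization and 11 of 24 with brighter probes only, so the list fell short of 50% there. The higher ones included the secreted protein Retnlg (562.8 and 1534, 1.48 ± 0.20), the oxidase subunit Cybb (103.7 and 254.5, 1.32), the lysozyme Lyz2 (172.5 and 391.0, 1.21), Chil3 (727.6 and 1621, 1.18) and the granule proteins Ltf (282.3 and 585.1, 1.08), Lcn2 (2034 and 3386, 0.76) and Camp (475.8 and 786.7, 0.75, and 0.59 at an overlapping probe). The calcium-binding proteins S100a8 and S100a9 had 1989 and 9405 on the WT array and 3966 and 14821 on the cKO array (1.02 and 0.69). Fcnb stood at 1.34, the collagenase Mmp8 at 0.92, the gelatinase Mmp9 at 0.88 and Ngp at 0.62. The primary granule genes of promyelocytes did not pass 1.5-fold. Mpo had 13245 and 11364 (-0.19), Elane 913.8 and 943.0 (0.07), Prtn3 2165 and 1621 (-0.39) and Ctsg stood at -0.21. The myeloid factors Cebpa and Cebpe stood at -0.09 and -0.25, the receptor Csf3r at 0.09, and the surface markers Ly6g, Cd177 and Itgam at 0.16, 0.37 and 0.24. The lists draw no line between genes of mature neutrophils and of their progenitors, and markers of both were among the 13 that did not pass. In LT-HSC the list had a median of 0.32, with 7 higher and 3 lower of 26. The macrophage list moved with this one on the cKO MPP array (22 of 24 higher, summed signal of 27 members 36087 against 16368), and its part in these values was not tested.

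Other groups of genes that macrophages also use shared members with that list. Of 21 genes of haem and iron handling 7 were higher by 1.5-fold and 0 lower, with a median of 0.24, and 3 of the 7 are in the macrophage list. Outside it 4 of 18 were higher, namely the divalent metal transporter Slc11a1 (23.3 and 79.0, 1.79 ± 0.30), the haemopexin receptor Lrp1 (101.7 and 217.0, 1.12), the haem-binding protein Hebp1 (73.3 and 151.3, 1.08) and haptoglobin, Hp (772.5 and 1238, 0.71). Of 26 genes of the lysosome and its MiT family regulators 6 were higher, 1 of them (Lgmn) in the macrophage list. Outside it the median was 0.10 with 5 of 25 higher, the cathepsins Ctsb (4495 and 9103, 1.05 ± 0.20), Ctsd (3122 and 5195, 0.76, and 1.03 at a second probe) and Ctss (0.59), the sphingolipid activator Psap (250.6 and 490.8, 1.00) and the acid lipase Lipa (0.62). Mitf, the member of the MiT family that is linked to p38 in studies of stem cells, had 91.9 and 109.5 (0.28 ± 0.21), and another probe gave -0.24. Of 21 genes of cholesterol and lipid handling 7 were higher and 1 lower, with a median of 0.20. The higher ones included the fatty acid binding protein Fabp4 (136.2 and 391.6, 1.55), the fatty acid receptor Cd36 (48.0 and 133.8, 1.51), the lipoprotein lipase Lpl (149.5 and 312.2, 1.09, and 1.31 at a second probe), Apoc1 (1.15), the desaturase Scd1 (1.09) and the cholesterol exporter Abca1 (0.72). The macrophage list moved with these groups as given above, and its part in them was not tested.

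**Figure D4:**
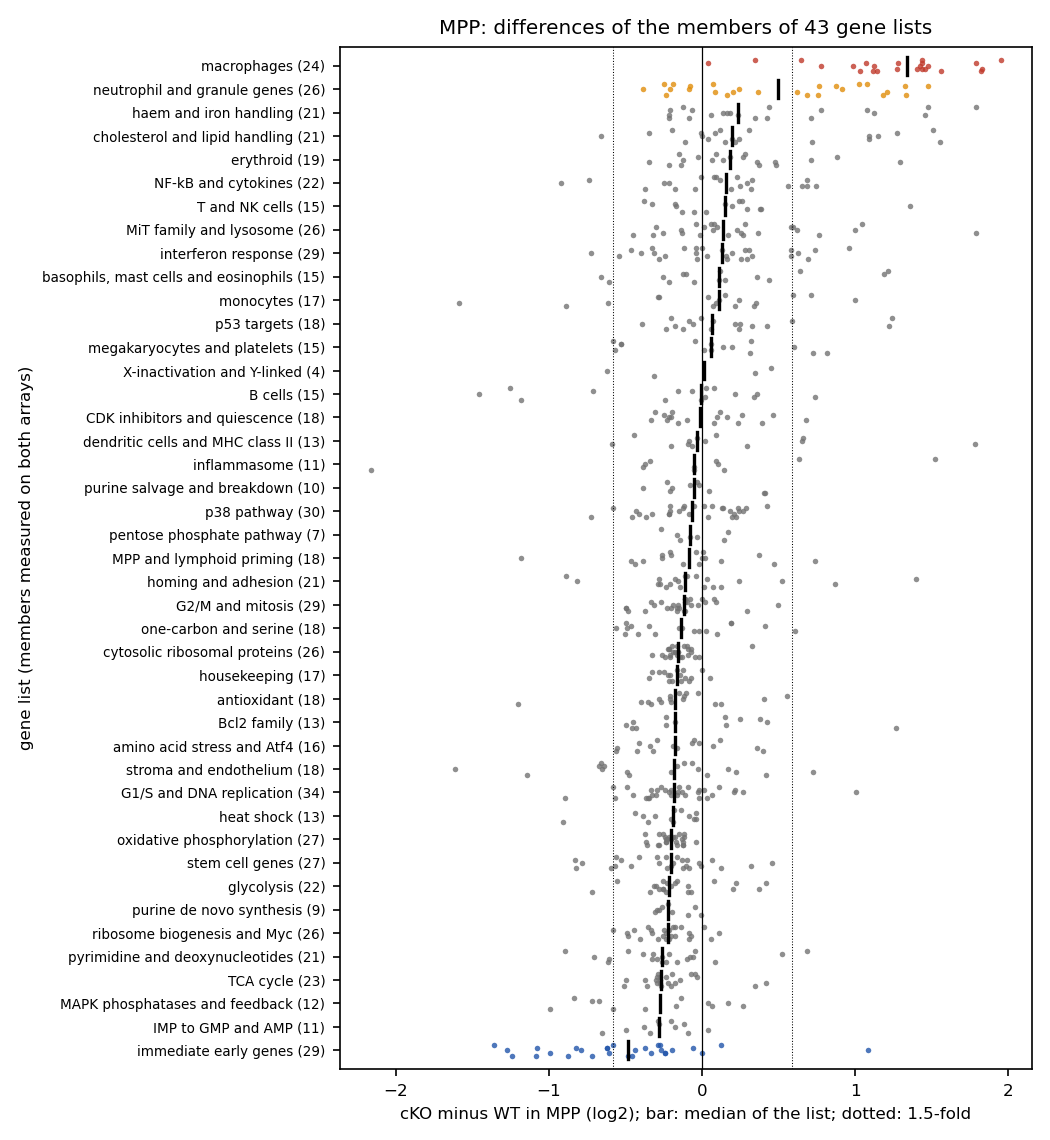
Differences in MPP (log2, cKO minus WT) of the members of 43 gene lists measured on both arrays, 1 point per gene, with the median of each list as a bar and dotted lines at 1.5-fold. Macrophage genes (median 1.34) and neutrophil and granule genes (0.49) stand highest, immediate early genes (-0.48) lowest, and the medians of the other lists lie from -0.28 to 0.24.

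Inflammatory genes went both ways. Over all genes 6.62% were higher and 7.53% lower by 1.5-fold. In the list of NF-kB and cytokine genes, 4 of 22 passed 1.5-fold upward and 2 downward, with a median of 0.15. The higher ones were the chemokine Cxcl2 (24.0 and 39.5, 0.75), the apoptosis inhibitor Birc3 (0.68) and the NF-kB inhibitors Nfkbie (0.68) and Nfkbia (491.3 and 758.1, 0.65 ± 0.20). The chemokines Ccl3 and Ccl4 were lower, with 364.9 and 378.2 on the WT array and 188.5 and 222.0 on the cKO array (-0.92 and -0.74). Of 29 interferon response genes 4 were higher and 1 lower. Ifit3 had 216.1 and 411.3 (0.96), Irf7 stood at 0.74, Oas2 at 0.69 and Irf1 at 0.63, although a second Irf1 probe stood at -0.95 and the mean of its probes at -0.16, and Usp18 was lower (-0.73). Mx1 was well above background on the cKO array only and was at least 3.69-fold higher. With normexp background correction, 1 of 29 interferon response genes was higher by 1.5-fold and 0 lower. Of the 22 NF-kB and cytokine genes 1 was higher and 2 lower under that correction. Among 11 inflammasome genes the DNA sensor Aim2 had 170.2 and 37.3 (-2.16 ± 0.24), and the sensor Nlrp3 56.0 and 157.8 (1.52 ± 0.22). Aim2 stood at 1.61 in LT-HSC, opposite to MPP.

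Purine enzymes, which the series title is about, lay close together on the MPP arrays. All 9 measured genes of de novo purine synthesis lay below 0, from -0.31 to -0.01, with a median of -0.22, and 0 reached 1.5-fold. Atic, which closes the purine ring, had 2221 and 1760 (-0.31 ± 0.20), Gart 1432 and 1155 (-0.28), Paics 4415 and 3616 (-0.26) and Ppat, which takes the committed step, 812.8 and 793.1 (-0.01). From IMP onward 1 of 11 was lower and 0 higher by 1.5-fold, with a median of -0.28. Impdh2, the enzyme that commits IMP to guanine nucleotides, had 4577 on the WT and 3549 on the cKO MPP array (-0.34 ± 0.20) and -0.19 at an overlapping probe. Gmps, the next enzyme, had 845.8 and 636.2 (-0.38), Impdh1 374.1 and 319.1 (-0.20), and Gmpr, which turns GMP back to IMP, 136.9 and 85.4 (-0.65 ± 0.21). Such medians have to be read against other lists of abundant transcripts. The median of housekeeping genes was -0.16, 16 of 17 being below 0, and the brightest class of all genes one of -0.13. Purine salvage stood at -0.06 with 0 of 10 past 1.5-fold. Of 21 pyrimidine and deoxynucleotide genes 4 were lower and 1 higher, with a median of -0.26, and 1 was lower and 0 higher with normexp and quantile normalization. The deaminase Dctd (926.1 and 487.1, -0.90 ± 0.20), Dhodh (279.7 and 168.4, -0.70) and Umps (2605 and 1671, -0.61) were among the lower ones, and the p53-induced reductase subunit Rrm2b was higher (33.0 and 52.1, 0.69).

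Energy and growth genes had medians close to that of housekeeping genes. The medians were -0.27 for the TCA cycle (0 of 23 past 1.5-fold), -0.22 for glycolysis (1 of 22 lower, the glucose transporter Slc2a3 with 1275 and 760.0, and 0 higher), -0.20 for oxidative phosphorylation, where all 27 lay below 0 and 0 passed 1.5-fold, -0.23 for ribosome biogenesis and Myc targets (0 of 26) and -0.16 for cytosolic ribosomal proteins (0 of 26). Cell cycle genes were alike. Of 34 genes of G1/S and DNA replication 1 was higher, the factor E2f2 (148.2 and 291.6, 1.01), and 1 lower, the origin protein Orc1 (349.4 and 183.7, -0.90), with a median of -0.18. Of 29 genes of G2/M and mitosis 0 passed 1.5-fold, with a median of -0.12. Of 18 CDK inhibitors and quiescence genes 1 was higher and 0 lower, with a median of -0.01. That gene was the forkhead factor Foxo1 (0.68), whose second probe stood at -1.24 and the mean of whose probes stood at -0.28. In the antioxidant list the sulfiredoxin Srxn1 was the exception, with 184.6 and 78.5 (-1.21 ± 0.21), and in the heat shock list the co-chaperone Bag3, with 196.7 and 102.5 (-0.91). Of 18 p53 targets 2 were higher, Phlda3 (23.7 and 55.0, 1.24) and the stress cytokine Gdf15 (63.8 and 146.0, 1.22), and 0 lower. Over all genes the shares at 1.5-fold were 6.62% higher and 7.53% lower.

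Among genes that mark cell identity, 4 of 27 measured stem cell genes were lower by 1.5-fold and 0 higher, with a median of -0.21, beside -0.16 for housekeeping genes and -0.13 for the brightest class of genes. The count was 1 lower with normexp background correction, and 1 lower and 1 higher with the mean over a gene's probes (median -0.12). They were the Ets factor Erg (266.2 and 146.5, -0.83 ± 0.21), the zinc finger factors Mecom (139.1 and 77.2, -0.82) and Prdm16 (80.4 and 45.9, -0.78), and Myct1 (1053 and 682.3, -0.60). Mecom and Erg each had another, dim probe above background on the cKO array only (16.9 and 16.8), and the mean over its probes put Mecom at 0.61. The Polycomb protein Bmi1 stood at -0.57, and -0.08 at a second probe, and Meis1, Gfi1 and Gata2, all transcription factors of stem and progenitor cells, at -0.01, -0.02 and -0.11. The list for MPP and lymphoid priming had a median of -0.08 with 1 higher (the adaptor Blnk, 0.74) and 1 lower (the recombinase Rag2, -1.18) of 18.

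Lists of other blood cells were mixed. Over all genes 6.62% were higher and 7.53% lower by 1.5-fold. Of 17 monocyte genes 3 were higher and 3 lower. The calcium-binding protein S100a4 had 8086 on the WT and 2634 on the cKO array (-1.59 ± 0.20) and 5499 and 1842 at a second probe (-1.55), and it was the lowest named gene with agreeing probes. In LT-HSC S100a4 had 5146 and 4156 (-0.23). The fractalkine receptor Cx3cr1 (-0.89) and the endotoxin co-receptor Cd14 (-0.62) were lower too, and the antibody receptor Fcgr3 was higher (121.9 and 239.2, 1.00). Of 15 genes of basophils, mast cells and eosinophils 3 were higher and 2 lower. The eosinophil ribonucleases Ear1 and Ear2 stood at 1.19 and 1.22. Against them, the eosinophil granule protein Prg2 had 241.9 on the WT array and 4.90 on the cKO array, not well above background, and was at least 18.6-fold lower, and the basophil protease Prss34 had 147.4 and 13.3 and was at least 10.9-fold lower. Other genes of these cells did not share that gap: the basophil protease Mcpt8 had 73.2 and 60.1 (-0.25) and the eosinophil peroxidase Epx 82.2 and 69.5 (-0.21). Of 15 B cell genes 4 were lower and 1 higher, the lower ones being the surrogate light chains Vpreb1 (48.9 and 17.5, -1.46) and Vpreb2 (-0.71), the coactivator Pou2af1 (184.3 and 75.7, -1.26) and Rag2. Erythroid genes had a median of 0.18 with 3 of 19 higher, led by the anion exchanger Slc4a1 (31.5 and 75.7, 1.30), and platelet genes one of 0.06 with 3 of 15 higher, led by the chemokine Pf4 (510.0 and 877.9, 0.81). With normexp background correction 0 erythroid genes and 1 platelet gene were higher, and 0 of either list were lower. Under that correction 1 B cell gene was lower and 0 higher, and 3 monocyte genes were higher and 1 lower. With brighter probes only, 0 of 12 erythroid genes were higher, with a median of 0.03. Of 13 genes of dendritic cells and MHC class II 3 were higher and 1 lower, with Cd300c at 1.78, and of 15 T and NK cell genes 1 was higher (the factor Tbx21, 1.36) and 0 lower.

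Genes of stroma and endothelium had 6 lower and 1 higher of 18 measured on both MPP arrays, with a median of -0.18. Over all genes 7.53% were lower and 6.62% higher by 1.5-fold. With normexp background correction, alone or with quantile normalization, 2 of the 18 were lower and 0 higher. The median of the list ran from -0.34 to -0.07 over the settings run. The 19 stroma and endothelium genes measured on at least 1 MPP array had a summed signal of 4294 on the WT and 3797 on the cKO MPP array. The sialomucin Emcn, which marks endothelium and some stem cells, had 100.8 and 32.3 (-1.61 ± 0.25), and the basement membrane collagens Col4a2 and Col4a1 had 308.2 and 104.1 on the WT array and 136.6 and 64.5 on the cKO array (-1.15 and -0.66). The chemokine Cxcl12 was the higher one (94.9 and 153.3, 0.72). The endothelial markers Kdr (0.03) and Pecam1 (-0.16) did not reach 1.5-fold, and Cdh5 was not well above background on either array. Of 21 genes of homing and adhesion 2 were higher, the sphingosine phosphate receptor S1pr1 (20.1 and 51.9, 1.40) and Esam (0.87), and 2 lower, Cx3cr1 and the endothelial guidance receptor Robo4 (-0.81).

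Agreement between separate probes gave a shorter set of genes. Of 6045 genes with at least 2 non-overlapping probes well above background on both MPP arrays, 60 (0.993%) had every probe higher by 1.5-fold and 80 (1.32%) every probe lower. Of these, 25 and 46 carry a gene name. Of the 60, 3 are in the macrophage list, which holds 7 of the 6045. The highest named genes by the probe nearest to 0 were Vcam1, the interferon-induced Ifit3b (91.3 and 241.4, 1.26 to 1.43), Hmox1, Lpl, the proton pump subunit Atp6v0a1 (114.1 and 233.4, 1.06 to 1.12), the immune checkpoint receptor Vsir (65.6 and 127.0, 0.98 to 1.04), the paired receptor Pira2 (37.2 and 143.7, 0.96 to 1.98), the folate and haem transporter Slc46a1 (44.9 and 84.1, 0.94 to 1.12), the lysosomal membrane protein Gpr137b (0.91 to 1.25, with a further probe at -1.14 that was above background on 1 array), the corepressor Tle4 (116.1 and 210.8, 0.89 to 0.98), the interferon-inducible Ifi207 (0.78 to 1.26) and Arfgap1 (0.77 to 1.19). Pira2 and Ifi207 belong to families of near-identical genes, so their probes may not part the members.

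The lowest genes by the same measure, after S100a4, were of other kinds. They were the ceramidase Acer2 (66.7 and 28.1), the water channel Aqp11 (60.0 and 26.4), the splicing factor Prpf40b (227.8 and 106.8), Tigar, a phosphatase of the glycolytic regulator fructose bisphosphate (389.0 and 186.4, -1.04 to -1.03 at adjoining probes), the mitochondrial sirtuin Sirt4 (109.6 and 52.7, -1.31 to -1.03), the pseudokinase Trib1, which targets Cebpa for degradation (658.0 and 306.3, 428.4 and 209.7, and 86.7 and 41.3 at its 3 probes), Zfp781, the sterol enzyme Nsdhl (85.8 and 40.1), Fggy, Ttll5 (846.2 and 454.3) and the nuclear long non-coding RNA that the array calls NEAT2, an older name of Malat1 (2290 and 1234, -0.96 to -0.86 over 3 adjoining probes). The 3 Trib1 probes gave nearly the same difference in MPP, while in LT-HSC they ranged from -0.57 to 0.76.

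By sign alone, the LT-HSC difference of the same probes was above 0 at every probe in 25 of the 60 higher genes and below 0 at every probe in 13. It was below 0 at every probe in 17 of the 80 lower genes and above 0 at every probe in 35. Over all 6045 genes the shares were 32.6% above 0 and 19.0% below. At 1.5-fold, among genes measured at all probes in LT-HSC as well, 11 of the lower genes had every probe lower by that much in LT-HSC too, 7 had every probe higher and 39 neither, and of the higher genes 5 had every probe higher, 5 every probe lower and 35 neither. The share of all genes with several probes that had every probe past 1.5-fold in LT-HSC was not counted. At the brightest probe alone, a looser measure, 19.3% of 21491 genes were higher and 14.1% lower by 1.5-fold in LT-HSC. NEAT2 was lower in both populations, with 6427 on the WT LT-HSC and 2593 on the cKO LT-HSC array at its brightest probe and differences from -1.46 to -1.15. Sirt4, the tropomyosin Tpm2 and the autophagy regulator Rb1cc1 were also lower in both, and the kinase anchor Akap10 was higher in both. Tigar was lower in MPP and higher in LT-HSC (64.6 and 145.5, 1.25). These genes were picked from the 4 arrays after their values were seen.

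Genes read at 1 probe, with at least 4 times the lowest signal above background, added further names. The highest were Fcna and C1qc, the brain-type creatine kinase Ckb (112.4 and 385.4, 1.81 ± 0.21), Lgmn, the macrophage membrane protein Ms4a7 (64.0 and 204.0, 1.70), the secreted glycoprotein Lrg1 (91.3 and 291.0, 1.70), the chemokine Ccl6 (162.0 and 502.0, 1.66) and Igf2r, the receptor that carries enzymes to lysosomes (83.6 and 256.0, 1.64). Among the lowest were the histone gene H2bc8 (931.8 and 266.0, -1.78 ± 0.20), which is one of a family of near-identical genes, the centriole protein Sass6 (660.2 and 218.2, -1.57), Zcchc3 (141.7 and 52.8, -1.39), the lesion-bypass polymerase Polh (209.2 and 78.5, -1.39), the ubiquitin-conjugating enzyme Ube2e2 (433.9 and 163.0, -1.38), Zfp445 (163.6 and 61.6, -1.38) and Tmem94 (422.6 and 160.0, -1.37). Not all of these probes were bright. Fcna, Ms4a7, Zcchc3 and Zfp445 lay in the second dimmest class of genes (mean signals from 49.7 to 158.9). In that class 5.62% of genes differed by 2-fold or more. Of the genes measured on 1 array, 221 were higher and 247 lower by at least 2-fold at their bound. Beside Cd163, the highest bounds were those of Fam229b (at least 9.55-fold), the cytochrome Cyp2c55 (at least 7.15-fold), the odorant receptor Olfr1057 (at least 6.79-fold) and the stress pseudokinase Trib3 (at least 6.69-fold). Beside Prg2 and Prss34, the lowest were Pfn2, Sult2b1 and Pla2g5, at least 7.44-fold, 7.21-fold and 6.76-fold lower.

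Transcripts of the immunoglobulin loci, a set chosen after their values were seen, showed a wide spread between the MPP arrays. Of 116 probes 67 were well above background on both, of which 17 were higher and 8 lower by 2-fold, 37.3% in all, with an interquartile range of 1.35 against 0.48 over all genes and 0.58 to 0.61 in the dimmer classes of genes. A probe in the IgG2a region had 23.9 on the WT and 1057 on the cKO MPP array (5.49), with 8821 and 10131 on the WT and cKO LT-HSC arrays, and another for a heavy chain gamma 32.6 and 1079 (5.08). The kappa variable segment 8-30 had 15.6 and 280.5 (4.20), while segment 14-126 had 252.6 and 22.6 (-3.46), so single segments went in opposite directions. The kappa constant region Igkc had 3384 and 4541 (0.45) and the mu constant region Ighm 120.5 and 126.3 (0.10). The median signal of the 67 probes well above background on both MPP arrays was 56.0 for WT MPP and 74.1 for cKO MPP. The same probes had medians of 2589 and 3650 on the WT and cKO LT-HSC arrays. Most of the other probes of the 116 were dimmer on the MPP arrays. Variable segments share sequence, so their probes can read one another's transcripts. Each B cell clone expresses 1 heavy and 1 light chain rearrangement, and with signals this low the number of B lineage cells behind each array was not measured.

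**Figure D5:**
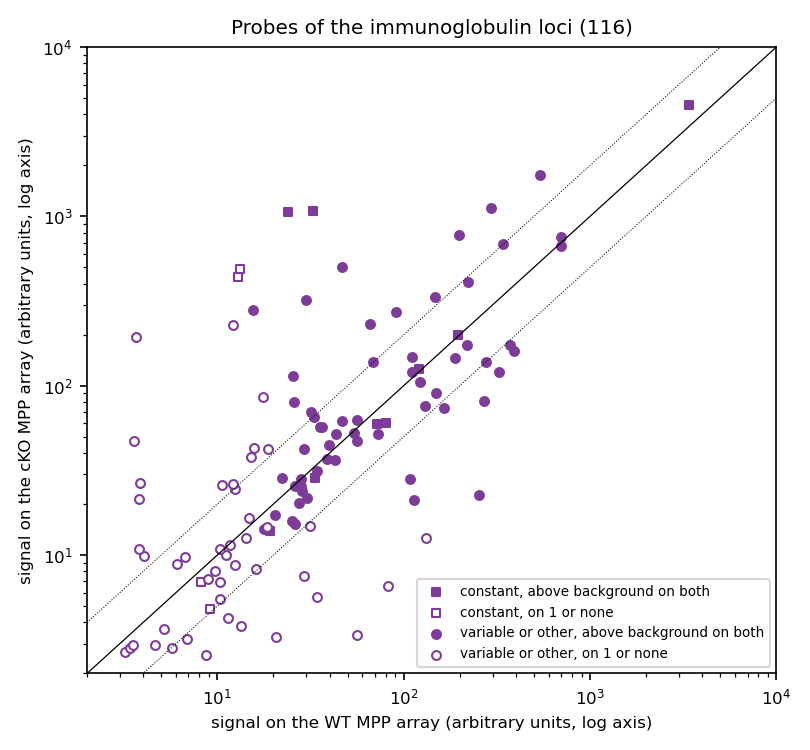
Signal on the cKO MPP array against that on the WT MPP array (both arbitrary units, log axes) for the 116 probes of the immunoglobulin loci, with lines at equality and at 2-fold. Filled symbols are well above background on both arrays, open ones on 1 or none, and squares are constant regions. The IgG2a and gamma probes lie far above the line near 1057 and 1079 on the cKO array, while variable segments scatter on both sides.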

How the data were processed

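RNA of CFSE-positive cells was measured on 1-colour Agilent mouse 60K arrays (design 028005, probe positions on mm9), 1 array per group. The deposited scanner files hold, per the file headers, the intensity of each spot after the background correction of Feature Extraction 10.7.3.1, with its error and background flags (a score of 0 or 1); the submitters' processing notes name version 9.5.3. The authors' deposited value table holds linear signals relative to an unstated scaling (a ratio), in columns with medians of 91.92, 107.31, 97.51 and 102.44. Its MPP log2 differences matched those of the scanner signals within 0.01 for 100% of 55675 probes after 1 offset. Its scale is therefore linear and its direction that of the scanner signals. A factor shared by all values of a probe cancels in such differences. They cannot show whether each probe was divided by its own level over the arrays. The scaling of each column is likewise unknown. This value table served as an alternative.

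Here each array's log2 intensity was taken minus its 75th percentile over non-control probes, outlier spots were left out and spots of a probe averaged. A probe entered if well above background on at least 1 MPP array, and a gene was read at its brightest probe. For a gene measured on 1 array, the bright value over the higher of the other array's value and that array's lowest signal well above background gave a bound. Names came from accessions (26864 probes), symbols (3751) or older symbols (623) in RefSeq, and otherwise from the files (24443 probes). With 1 array per group, 0 residual degrees of freedom remain, so no test was run. A list counts as shifted when at least 50% of its members measured on both arrays pass 1.5-fold in 1 direction; this held for macrophages and, at exactly 50%, for neutrophil and granule genes, and not for the other 41.

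Named genes were the p38 isoforms, Impdh2 and Mitf; the 12 highest and 12 lowest by several agreeing probes; the 8 highest and 8 lowest at 1 probe with at least 4 times the lowest signal above background; the 5 highest and lowest bounds; and in each list the 5 largest differences, or every member of a shifted list. Transcripts without a gene name were counted and passed over, and 6 genes that the rule or the lists hold are not reported here by name. The genes compared and the lists were chosen with earlier results of these data known. Alternatives changed the background correction (normexp, offset 50, limma 3.58.1 in R 4.3.3), the scaling, the filter and the probe rule. Counting was tested on simulated data. Python 3.11.15, pandas 2.3.3 and numpy 2.4.6 did the rest.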

Additional observations from a re-analysis of the deposited data

Results flagged for a closer look

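In 17 of the named genes the difference at the brightest probe between genotypes passed 2-fold in both populations with opposite signs. Named genes were chosen largely by the size of their MPP differences, and the share over all genes at 2-fold was not counted. At 1.5-fold, of 1357 genes higher in MPP, 28.6% were higher and 20.3% lower in LT-HSC. Of 1531 genes lower in MPP, 28.3% were higher and 24.0% lower in LT-HSC. Opposite signs were thus not particular to the named genes. None of the 17 differences between populations was tested, since each rests on 1 array per group. Higher on the cKO MPP array and lower on the cKO LT-HSC array were Ccn2 (-2.76 in LT-HSC), Cd5l (-1.50), Ear1 (-1.06), Ear2 (-1.41), Fabp4 (-2.52), Gpr137b (-1.22), Hmox1 (-1.18), Igf2r (-1.49), Lpl (-2.84), Phlda3 (-1.47), Scd1 (-1.34), Slc4a1 (-1.63) and Vcam1 (-4.33). Lower in MPP and higher in LT-HSC were Aim2 (1.61 in LT-HSC), the splicing factor Prpf40b (2.67), Tigar (1.25) and Zcchc3 (2.11). The second Vcam1 probe stood at 1.61 in MPP and was not well above background on either LT-HSC array, and the second Hmox1 probe stood at 1.15 in MPP and -0.44 in LT-HSC. Other probes did not all share the opposition. The second Prpf40b probe was lower in both populations (-1.21 in MPP and -0.41 in LT-HSC), the second Gpr137b probe was higher in both (0.91 and 0.44), and the second Lpl probe stood at 1.31 and -0.46, with 1 LT-HSC array not well above background. Tigar had adjoining probes in the same direction on each pair (-1.04 and -1.03 in MPP, 1.03 and 1.25 in LT-HSC). Stroma and endothelium genes moved with the LT-HSC values, with a summed signal of 12819 on the WT LT-HSC and 4599 on the cKO LT-HSC array, against 4294 and 3797 in MPP, and their part in these differences was not tested.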

How the results depend on the processing

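The counts at 2-fold, 402 higher and 420 lower, and those of genes whose probes all passed 1.5-fold, 60 and 80, depended on how dim signals were treated. With normexp background correction and the 75th percentile they were 73, 47, 13 and 9, and with normexp and quantile normalization 77, 44, 14 and 9. Without a filter on dim probes they were 1704, 2039, 156 and 215, and with a signal of at least 4 times the lowest above background 131, 127, 17 and 24. The last 2 change by construction which genes are counted. The normexp settings add an offset of 50 to each signal, which by construction draws the differences of dim genes toward 0. How much of the drop in counts came from that offset was not tested. Of the genes at 2-fold, 60.8% and 63.6% were higher under the normexp settings against 48.9%. The macrophage median was 1.12 with normexp and the 75th percentile and 1.13 with normexp and quantile normalization, and 17 to 25 members were higher by 1.5-fold under the settings run. The immediate early median ranged from -0.49 to -0.33 with 8 to 15 lower, and the neutrophil median from 0.30 to 0.56 with 10 to 13 higher, under the 50% mark with both normexp settings and with brighter probes only. With each gene read as the mean over its probes the sign turned for Clec1b (-0.17), Foxo1 (-0.28), Irf1 (-0.16) and Mecom (0.61), and for no other named gene under any setting. Without members of the cell type lists, chosen after the data were seen, 370 genes were higher and 414 lower. No array can be left out with 1 array per group. No paired analysis was possible because each group has 1 array. Signals near background limit what the dimmer genes show, and differences between animals or sorts were not measured.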

Other observations

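Transcripts without a gene name made up 9093 of the 22437 transcripts measured on both MPP arrays, and 3 of them are described here because their values stood out once seen. They are intergenic transcripts that the array names by position (mm9). The transcript at chr9:56911160-56911452 had signals of 34.1 on the WT MPP and 196.4 on the cKO MPP array (2.55), and of 19.3 and 82.7 at an adjoining probe (2.13). In LT-HSC the first probe had 8.60 on the WT array, not well above background, and 94.8 on the cKO array. The transcript at chr3:51784862-51793999 had 3 adjoining probes, with 48.9, 84.9 and 85.2 on the WT MPP array and 169.3, 307.9 and 276.2 on the cKO MPP array (1.82, 1.89 and 1.73). Its WT LT-HSC signals were 2.96, 10.1 and 21.4, the last alone well above background, and its cKO LT-HSC signals 157.8, 223.6 and 245.2. Both transcripts were therefore higher on both cKO arrays than on both WT arrays. The lowest difference of any gene measured on both arrays was at 1 probe of a transcript at chr10:66383049-66386347, with 313.2 and 17.2 in MPP (-4.15) and signals near background in LT-HSC, 23.1 and 13.7. Nothing in the sources used here names these transcripts further.

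The differences in MPP were spread over the genome. Chromosome medians ran from -0.09 on chromosome X to -0.03 on chromosome 14, and 4.93% to 8.44% of a chromosome's genes were higher and 5.95% to 8.97% lower by 1.5-fold.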
